A study of Mus musculus with 2 samples.

Results

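Glucose is taken up, phosphorylated and then burned to pyruvate by glycolysis, stored as glycogen or diverted into the pentose phosphate pathway. The genes described here encode the transporters and enzymes of these routes and of the fate of pyruvate. They were measured in single bone marrow cells of mice with normal and with high blood sugar. The list held 39 genes, all present in both count tables, and a gene counted as a member with at least 10 CPM, its share of the total counts of that cell type on the usual scale, in a cell type of either library. This left 38 members out of 27842 genes in the tables. Pdk4, a kinase that switches off pyruvate dehydrogenase, was the listed gene that did not reach this level, with 0.108 CPM at most.

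The marrow was that of the leg bones (femurs and tibias), from C57/BL6 animals. Normal blood sugar was recorded for the control library, from mice treated with sodium citrate solution, and high blood sugar for the T1D library, from mice treated with streptozotocin, which kills pancreatic beta cells. The labels used here name no age and no number of animals, and T1D stands for type 1 diabetes. In sums over cells, fewer cells that express a gene and less of its RNA per cell cannot be told apart. With 1 library in each group, differences between the groups were not tested, and none can be set against the spread between animals. Intervals are exact 95% intervals and cover counting error only.

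In background, glucose enters blood cells mainly through the facilitative transporters encoded by Slc2a1 and Slc2a3, and hexokinases trap it as glucose 6-phosphate. Neutrophils have few mitochondria and are known to depend on glycolysis, to store glycogen, and to feed the oxidative burst with NADPH from the pentose phosphate pathway. Erythroid cells likewise lean on glycolysis as they lose their mitochondria. Several glycolytic genes are known targets of hypoxia-inducible factors.

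The control library held 57494166 counts in 12880 barcodes and the T1D library 52022458 in 15771, of which 12803 and 15579 were kept, with median totals of 3633 and 2757 counts per cell. The libraries shared 253 barcode sequences. Nuclear ribosomal RNA took 30.3% of the counts of kept control cells and 34.0% of those of kept T1D cells. Cells were clustered without any gene of the pathway, and clusters were named from marker genes, each name carrying the sense of "like". There were 10 classes with at least 100 cells in both libraries. Of these, 6 had at least 500 in both: immature neutrophils (3662 control and 5002 T1D cells), mature neutrophils (2091 and 4180), monocytes (1680 and 2077), T or NK cells (519 and 720), mature B cells (840 and 544) and a progenitor cluster of mixed markers called here the Cd34 cluster (524 and 600). The other 4 were granulocyte-monocyte progenitors (416 and 976), plasmacytoid dendritic cells (642 and 148), basophils or mast cells (152 and 132) and erythroid cells (299 and 254). Unnamed clusters held 12.8% of control and 4.94% of T1D cells. Among them was cluster 17, with 47 control and 589 T1D cells, where hemoglobin and ribosomal RNA genes led. It is not part of the erythroid cells. The mature neutrophils of the libraries lay mostly in different clusters, 1942 of the control cells in cluster 5 and 2560 and 1328 of the T1D cells in clusters 3 and 7.

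RNA of neutrophils was found in all 7 compared classes outside the neutrophil lineage, and at a higher level in the T1D library. The secondary granule genes Ngp, Camp and Ltf stood at 33.8% of their level in neutrophils in control mature B cells and at 49.6% in T1D. In T or NK cells these shares were 17.4% and 32.4%, in monocytes 7.71% and 16.5%, and in erythroid cells 4.20% and 9.86%. In plasmacytoid dendritic cells they were 12.2% and 20.4%, in basophils or mast cells 13.3% and 24.1%, and in the Cd34 cluster 3.51% and 10.3%. The 12 immature neutrophil markers summed to 18162 CPM in control and 25593 in T1D T or NK cells, with 0 of them at 0 in either library. Member calls, the step sums named below and the named genes of other lists were therefore also computed with neutrophil RNA subtracted at these levels, a setting chosen after seeing the data. The share subtracted was larger in T1D in all 7 classes, so by its construction it takes more neutrophil RNA from the T1D level. The interval in the rule stayed that of the counts before subtraction. The levels left by this and by the other subtractions were not rescaled to the RNA that remained. They are therefore not shares of a class's own RNA. With neutrophil RNA, the larger share taken in T1D by itself lowers the ratio of T1D over control that is left. In basophils or mast cells the level of plasma cell genes was 1.18% of that in other cells in control and 27.5% in T1D, and in erythroid cells it was 1.18% and 37.0%.

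Promoter sequences are shown for 4 of the 6 members that passed the 1.5-fold rule, explained after the sequences, in at least 1 class under every alternative that left the rule in place. The other members of the 6 are Pfkp, by its call in basophils or mast cells, and Pdk1, by its call in mature B cells. Shown are Gapdh and Hk2, lower in T1D, Pfkfb3, higher in mature neutrophils, and Ldhb, higher in monocytes and lower in plasmacytoid dendritic cells. Each runs from 250 bases before to 50 bases after the transcript start, 5′ to 3′, from the RefSeq table of build GRCm38.p6. That build is not the mm9 of the count tables. Capitals mark ACGTG on either strand, the core shared by hypoxia response elements, which also lies inside the E-box CACGTG.
Gapdh, chr6:125165724-125166023, minus strand: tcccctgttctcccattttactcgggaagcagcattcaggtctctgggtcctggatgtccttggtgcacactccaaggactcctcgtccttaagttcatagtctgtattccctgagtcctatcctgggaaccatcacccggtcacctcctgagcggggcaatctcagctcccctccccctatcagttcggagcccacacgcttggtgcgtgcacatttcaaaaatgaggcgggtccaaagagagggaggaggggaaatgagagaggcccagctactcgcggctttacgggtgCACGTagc
Hk2, chr6:82774405-82774704, minus strand: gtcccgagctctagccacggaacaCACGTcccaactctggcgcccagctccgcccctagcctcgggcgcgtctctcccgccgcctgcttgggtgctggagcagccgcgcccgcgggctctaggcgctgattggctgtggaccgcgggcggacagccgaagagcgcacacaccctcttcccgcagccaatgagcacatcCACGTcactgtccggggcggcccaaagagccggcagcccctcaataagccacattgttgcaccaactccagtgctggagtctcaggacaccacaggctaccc
Pfkfb3, first start listed, chr2:11502041-11502340, minus strand: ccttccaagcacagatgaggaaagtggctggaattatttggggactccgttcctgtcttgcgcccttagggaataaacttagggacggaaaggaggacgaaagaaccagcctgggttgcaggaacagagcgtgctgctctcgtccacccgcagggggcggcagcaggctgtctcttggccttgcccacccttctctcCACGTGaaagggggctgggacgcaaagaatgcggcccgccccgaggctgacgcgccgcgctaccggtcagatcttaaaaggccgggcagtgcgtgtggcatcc
Pfkfb3, other start, chr2:11553880-11554179, minus strand: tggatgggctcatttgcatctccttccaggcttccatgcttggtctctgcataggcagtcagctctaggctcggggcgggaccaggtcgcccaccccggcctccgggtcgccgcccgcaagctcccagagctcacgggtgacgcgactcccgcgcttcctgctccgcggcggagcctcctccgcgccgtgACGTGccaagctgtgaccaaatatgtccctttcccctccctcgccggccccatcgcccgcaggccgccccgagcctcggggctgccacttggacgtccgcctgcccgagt
Ldhb, chr6:142507908-142508207, minus strand: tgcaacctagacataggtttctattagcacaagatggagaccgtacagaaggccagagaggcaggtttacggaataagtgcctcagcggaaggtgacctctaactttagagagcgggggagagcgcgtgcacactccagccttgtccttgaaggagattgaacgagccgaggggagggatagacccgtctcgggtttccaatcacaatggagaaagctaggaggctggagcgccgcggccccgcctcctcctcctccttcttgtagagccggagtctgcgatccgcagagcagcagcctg
Over the 37 members with an entry, 52 promoters were listed, and 21 of them (40.4%) held ACGTG on either strand, against 19.6% of all 32851 promoters in the table. CACGTG was in 4 of the 52 (7.69%), against 7.15% of all. The Ldhb promoter held no ACGTG. The table has no entry for Slc2a3. A match describes the letters of this window and nothing more.

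A member was counted as higher or lower in T1D where its level differed at least 1.5-fold, with 5 CPM added to both libraries, where it reached 10 CPM in the higher library and where the interval of the ratio left out 1. Most members did not pass in any given class. In immature neutrophils 0 of 32 members were higher, against 3.94% of all features, and 1 was lower, against 2.45%. In mature neutrophils 1 of 32 was higher and 1 lower, against 9.35% and 6.48% of all features. In monocytes 2 of 35 were higher (4.75% of all features) and 3 lower (6.38%). In the Cd34 cluster 3 of 36 were higher (5.33%) and 1 lower (5.52%).

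In mature B cells 4 of 35 members were higher, against 5.91% of all features, and 2 lower, against 13%. In T or NK cells 5 of 34 were higher (7.15% of all features) and 1 lower (9.05%). Of the smaller classes, granulocyte-monocyte progenitors had 1 of 35 higher (4.61%) and 3 lower (4.62%), and plasmacytoid dendritic cells 3 of 34 higher (8.78%) and 1 lower (8.21%). Basophils or mast cells had 1 of 33 higher (5.53%) and 4 lower (8.13%), and erythroid cells 3 of 32 higher (7.8%) and 1 lower (8.46%). Over all kept cells, where the mix of cells also differs, 0 of 36 were higher (2.27%) and 2 lower (7.72%), Gapdh and the lactate transporter gene Slc16a1. The median log2 ratio of the members ran from -0.16 in granulocyte-monocyte progenitors, where that of all features was -0.03, to 0.21 in monocytes, where it was -0.06.

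Under a stricter rule, a 2-fold difference and at least 50 CPM in the higher library, 3 calls were left: Gapdh lower in granulocyte-monocyte progenitors and in basophils or mast cells, and Pygl higher in erythroid cells. In the 6 larger classes 0 members passed it. Of all features in those classes, 1.04% passed on the higher and 0.492% on the lower side in the Cd34 cluster, 0.88% and 0.51% in immature neutrophils, and 1.49% and 2.09% in mature neutrophils. The shares were 2.03% and 1.05% in monocytes, 0.538% and 4.03% in mature B cells, and 1.32% and 2.1% in T or NK cells. In the smaller classes they were 0.576% and 0.516% in granulocyte-monocyte progenitors, 1.7% and 2.99% in plasmacytoid dendritic cells, 3.21% and 4.12% in basophils or mast cells, and 1.31% and 0.916% in erythroid cells. Over all kept cells they were 0.936% and 2.55%, with 0 members. The results are given next by pathway step.

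**Figure D1:**
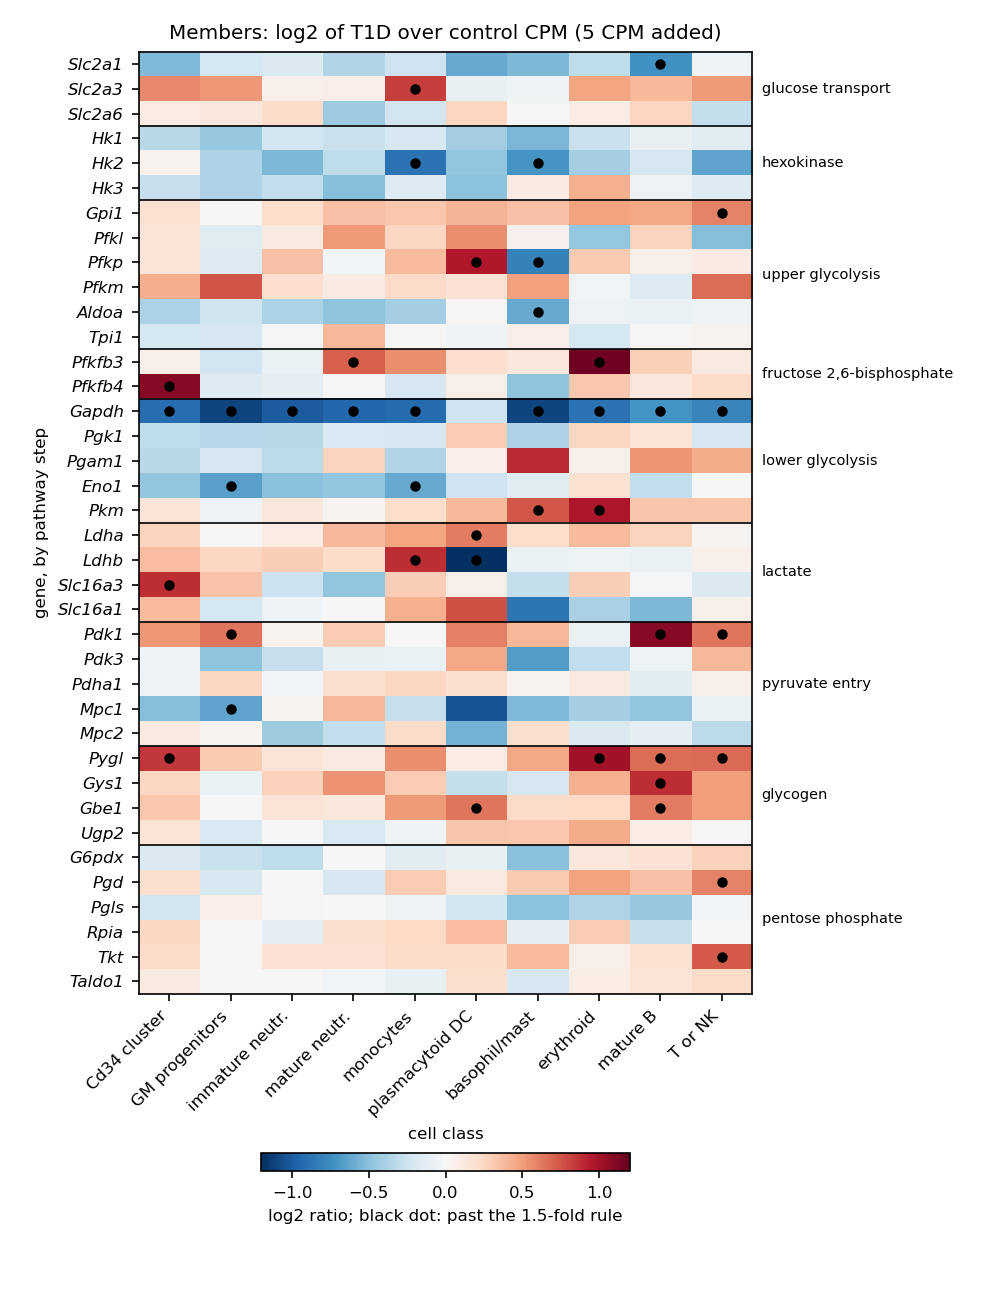
Log2 ratio of T1D over control level (5 CPM added) of the 38 members (rows, by pathway step) in the 10 compared classes (columns), with a black dot where the 1.5-fold rule was passed. Gapdh is dotted in 9 of 10 columns, and no other row has more than 4 dots.

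Slc2a3, which encodes the high-affinity glucose transporter GLUT3, was highest in mature neutrophils. Its level there was 571 CPM in the control library (552 to 591) and 603 in T1D (588 to 619), a ratio of 1.06 (1.01 to 1.10). Immature neutrophils followed with 261 and 271 CPM, then basophils or mast cells with 209 and 202 and mature B cells with 158 and 208, while the other 6 classes held 148 or less. In monocytes Slc2a3 was 39.2 CPM in the control library (35.4 to 43.4) and 73.4 in T1D (68.0 to 79.1), 1.87-fold higher (1.65 to 2.13). With neutrophil RNA subtracted the monocyte levels became 12.1 and 7.56 CPM and the difference turned around, with a log2 ratio of -0.45. Slc2a1, for the widespread transporter GLUT1, was highest in mature neutrophils with 42.1 and 31.7 CPM. In mature B cells it was lower in T1D, at 12.8 against 5.77 CPM, from 35 and 8 counts, and 7 of 16 alternatives ended that call. Slc2a6, for a lysosomal hexose transporter, passed the rule in no class and was highest in mature neutrophils, at 75.3 and 54.5 CPM.

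The summed level of the hexokinase genes had a ratio of T1D over control below 1 in all 10 classes. The sum of Hk1, Hk2 and Hk3 was 160 CPM in control and 117 in T1D mature neutrophils, a ratio of 0.727 (0.667 to 0.793). The ratio was 0.779 (0.738 to 0.822) in immature neutrophils, 0.714 (0.653 to 0.780) in monocytes and 0.748 (0.682 to 0.821) in granulocyte-monocyte progenitors. The intervals of mature B cells, T or NK cells and erythroid cells reached 1. After the subtraction, without rescaling, the ratio lay between 0.325 in mature B cells and 0.801 in erythroid cells in the 7 classes outside the lineage. Hk2, whose enzyme binds to mitochondria and is inducible, passed the rule in monocytes with 53.1 CPM (48.6 to 57.8) in control and 26.4 (23.2 to 29.9) in T1D, 2.01-fold lower (1.73 to 2.35). It also passed in basophils or mast cells, with 109 and 64.8 CPM, 1.68-fold lower (1.07 to 2.71). Both calls were kept under all 16 alternatives that left the rule in place. Hk1, the housekeeping form, had a ratio below 1 in all 10 classes without passing in any, as in erythroid cells, its highest class, with 149 CPM (134 to 165) and 123 (105 to 142). Hk3, a form found mainly in myeloid cells, was highest in granulocyte-monocyte progenitors with 147 and 112 CPM and passed in no class. Of the 29 members past 10 CPM in all 10 classes, 2 were below 1 in every class, Hk1 and Gapdh, and 3 above, Gpi1, Pygl and Tkt. Among all 4097 such features the shares were 6.74% and 8.3%, so these counts are near the background.

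In upper glycolysis few members differed. Gpi1, which turns glucose 6-phosphate into fructose 6-phosphate, was among those above 1 in all 10 classes, and passed in T or NK cells with 185 CPM in control and 282 in T1D, 1.53-fold higher (1.34 to 1.75). After subtraction of neutrophil RNA these became 106 and 108 CPM. The 3 phosphofructokinase genes were spread over different classes. Pfkm stood at 101 and 98.3 CPM in erythroid cells and at no more than 21.8 in any other compared class. Pfkl was highest in the Cd34 cluster, with 61.4 and 68.9 CPM. Pfkp passed the rule in opposite directions, from 59.0 to 120 CPM in plasmacytoid dendritic cells, 2.03-fold higher (1.52 to 2.68), and from 172 to 96.0 in basophils or mast cells, 1.80-fold lower (1.25 to 2.64). The first of these calls was lost at Leiden resolution 2. Aldoa, for the aldolase of most tissues, was below 1 in 9 of 10 classes and passed in basophils or mast cells, with 153 and 98.4 CPM, a call that 7 of 16 alternatives ended. Tpi1 passed in no class.

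The level of fructose 2,6-bisphosphate, a potent activator of phosphofructokinase, is set by the enzymes of Pfkfb3 and Pfkfb4. Pfkfb3 was 38.0 CPM (33.3 to 43.3) in control mature neutrophils and 65.8 (60.8 to 71.0) in T1D, 1.73-fold higher (1.48 to 2.02), and the call was kept under all 15 alternatives that left the rule in place. Within cluster 5 it was 38.8 and 53.1 CPM and within cluster 3 it was 27.6 and 57.9, and neither passed alone. Within cluster 7 it was 24.7 and 86.9 and passed, the control value resting on 4 counts. Immature neutrophils did not share it, with 41.1 and 38.8 CPM. In erythroid cells Pfkfb3 passed on 6 control and 17 T1D counts, and did not with neutrophil or plasma cell RNA subtracted. Pfkfb4 was highest in mature neutrophils, with 99.6 and 101 CPM, and passed in the Cd34 cluster, with 4.72 (2.92 to 7.22) and 15.7 CPM (11.8 to 20.4), a call lost with neutrophil RNA subtracted.

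**Figure D2:**
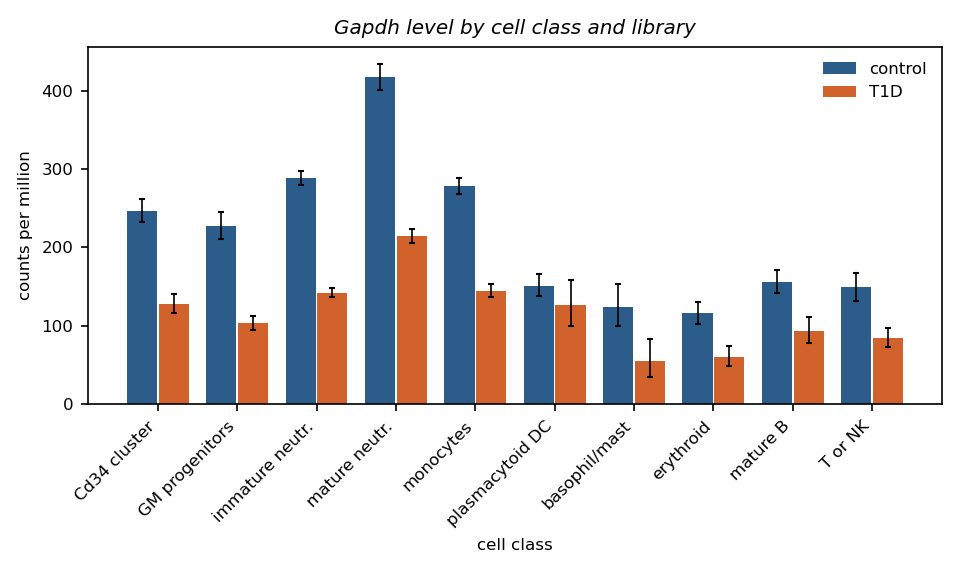
Gapdh level in CPM (bars) by cell class, control in blue and T1D in orange, with exact 95% Poisson intervals. The T1D bar is lower in all 10 classes, and only in plasmacytoid dendritic cells do the intervals overlap.

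Gapdh, for the glycolytic enzyme that makes NADH and 1,3-bisphosphoglycerate, was the member with the broadest difference. It was lower in T1D in 9 of 10 classes. Mature neutrophils had 418 CPM (401 to 434) in control and 214 (205 to 224) in T1D, 1.95-fold lower (1.84 to 2.07). Immature neutrophils had 289 and 142 CPM, 2.03-fold lower (1.93 to 2.14), monocytes 278 and 145, 1.92-fold (1.80 to 2.05), and granulocyte-monocyte progenitors 228 and 103, 2.21-fold (1.96 to 2.48). The intervals of the libraries did not overlap in any of these classes.

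The Cd34 cluster had 246 and 128 CPM of Gapdh, and erythroid cells 116 and 60.2, both 1.92-fold lower. Mature B cells had 156 and 93.1 CPM (1.68-fold, 1.37 to 2.06). T or NK cells had 149 and 84.3 CPM (1.77-fold, 1.46 to 2.15). In basophils or mast cells it was 124 and 55.2 CPM (2.25-fold, 1.41 to 3.74). Plasmacytoid dendritic cells, with 151 and 126 CPM, did not pass. Of the 22 clusters with at least 50 cells in each library, 20 passed the rule, plasmacytoid dendritic cells and macrophages being the exceptions. Within the mature neutrophils it was 422 and 218 CPM in cluster 5, 359 and 217 in cluster 3, and 352 and 207 in cluster 7. With neutrophil RNA subtracted it was lower in the same classes, and larger in fold in each of those 6 classes where the subtraction was made. The missing rescaling by itself raises that fold.

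Among 4097 features that passed 10 CPM in all 10 classes, 15 (0.366%) were lower by the same rule in at least 9, and Gapdh was the member among them. After each cell was thinned to 1000 counts, 30.7% of control and 17.8% of T1D mature neutrophils held a Gapdh count (62.3% and 34.4% before thinning). In monocytes the thinned shares were 21.5% and 11.2% (62.8% and 37.3% before). No class here should lack Gapdh, so no background share is given. Gapdh has many processed copies in the mouse genome, so counting could have split its reads and its level is uncertain to that extent. Its call ended under 1 alternative in basophils or mast cells and in T or NK cells, and under 2 in mature B cells, where subtraction at the hemoglobin level turned it around.

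The other genes of lower glycolysis did not follow Gapdh in size. Eno1, for enolase, was lower in monocytes, with 286 CPM (275 to 296) and 186 (177 to 195), 1.54-fold (1.45 to 1.63), and in granulocyte-monocyte progenitors, with 280 and 176, 1.59-fold (1.45 to 1.75). The calls lay close to the threshold. With TMM scaling or without ribosomal RNA in the totals the monocyte call was lost, and at Leiden resolution 2 or with cells assigned one by one that of the progenitors. Mature neutrophils had 230 and 165 CPM of Eno1 and did not pass. Eno1 passed as lower after the subtraction of neutrophil RNA also in the Cd34 cluster, with 171 and 112 CPM, and in mature B cells, with 50.5 and 24.0. Pgk1 and Pgam1, for the steps between Gapdh and enolase, passed in no class. Pkm, for pyruvate kinase, was above 1 in 9 of 10 classes, with 671 and 686 CPM in mature neutrophils. It passed in basophils or mast cells (209 and 355 CPM) and in erythroid cells (55.8 and 114), and in both the call was lost when RNA was subtracted at the level of plasma cell genes. Eno1, Pgk1, Pgam1, Aldoa, Tpi1 and Ldha have near-identical copies too, so their levels carry the same uncertainty.

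Lactate is made by lactate dehydrogenase and exported with a proton by monocarboxylate transporters. Ldha, for the muscle-type subunit, was above 1 in 9 of 10 classes and passed in plasmacytoid dendritic cells, with 197 and 304 CPM. After subtraction of neutrophil RNA it did not pass, but the missing rescaling by itself lowers that ratio. Ldhb, for the heart-type subunit, was 12.1 CPM in control monocytes and 26.7 (23.5 to 30.2) in T1D, 2.21-fold higher (1.77 to 2.77). In plasmacytoid dendritic cells it was 36.9 and 13.1 CPM, 2.81-fold lower (1.38 to 6.68), with 8 counts in T1D. Both calls were kept under all 16 alternatives that left the rule in place. Slc16a3, for the lactate exporter MCT4, had its highest level in mature neutrophils, at 733 CPM (711 to 755) in control and 527 (513 to 542) in T1D. That is 1.39-fold lower and did not pass. By cluster it was 735 and 567 CPM in cluster 5 and 711 and 697 in cluster 7, and in cluster 3 it was 695 and 448 and passed. In the Cd34 cluster it was 32.2 and 63.5 CPM, 1.98-fold higher (1.60 to 2.45), and 20.2 and 33.0 after subtraction of neutrophil RNA, still past the rule. Leaving out the 5% largest cells ended that call, and subtraction at the hemoglobin level turned it around, with a log2 ratio of -0.24. Slc16a1, for MCT1, was highest in erythroid cells, with 225 and 171 CPM.

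**Figure D3:**
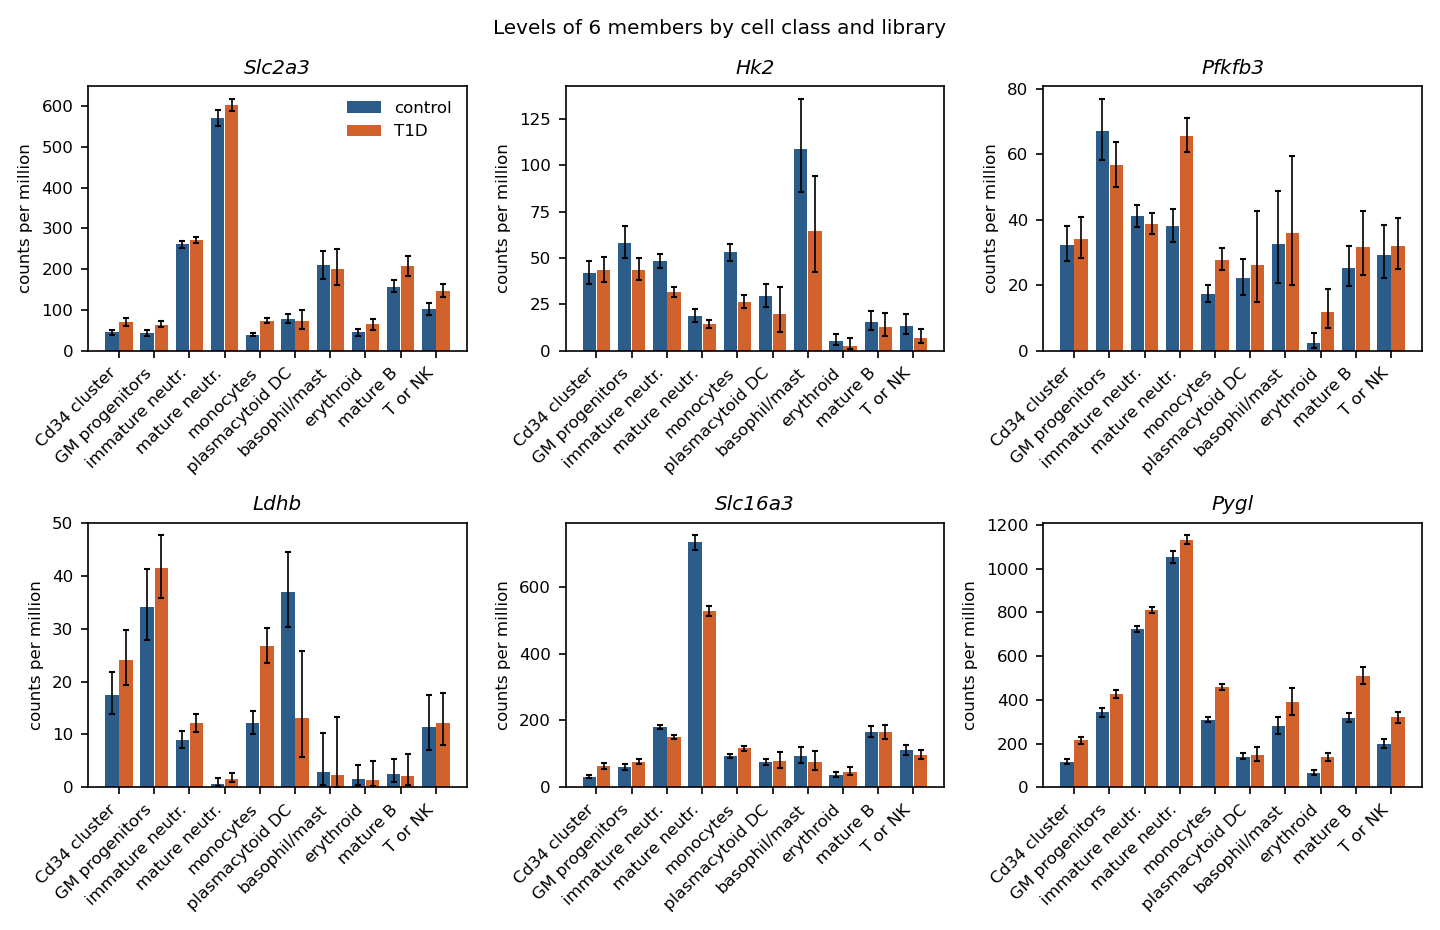
Levels in CPM (bars) of Slc2a3, Hk2, Pfkfb3, Ldhb, Slc16a3 and Pygl by cell class, control in blue and T1D in orange, with exact 95% Poisson intervals. Slc2a3, Slc16a3 and Pygl peak in mature neutrophils in both libraries, and Hk2 in basophils or mast cells.

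Pyruvate enters mitochondria through the carrier of Mpc1 and Mpc2 and is then oxidised by pyruvate dehydrogenase, which the Pdk kinases switch off. Pdk1 was higher in mature B cells, with 9.87 CPM (6.51 to 14.4) in control and 26.7 (18.8 to 36.8) in T1D, 2.70-fold (1.60 to 4.62), from 27 and 37 counts. It was also higher in T or NK cells, with 30.5 and 50.3 CPM, 1.65-fold (1.18 to 2.32), and in granulocyte-monocyte progenitors, with 20.5 and 34.6, 1.69-fold (1.26 to 2.30). Pdk1 stood at no more than 3.24 CPM in immature or mature neutrophils, and with neutrophil RNA subtracted the levels in mature B cells were 9.48 and 25.7 and those in T or NK cells 30.3 and 49.7. The call was kept under all 16 alternatives in mature B cells, under 13 of 16 in T or NK cells and under 13 of 15 in granulocyte-monocyte progenitors, where Leiden resolution 2 and cells assigned one by one ended it. Mpc2 was 139 and 102 CPM in immature neutrophils and 123 and 142 in basophils or mast cells, and passed in no class. It passed as lower after that subtraction in plasmacytoid dendritic cells, with 54.7 and 26.2 CPM. Mpc1 passed in granulocyte-monocyte progenitors, on 33 and 24 counts, and 5 of 15 alternatives ended that call. Pdk3 and Pdha1, for another kinase and for the dehydrogenase subunit it acts on, passed in no class.

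The summed level of the glycogen genes had a ratio above 1 in all 10 classes, from 1.06 in mature neutrophils to 1.81 in erythroid cells. In control mature neutrophils the sum was 1259 CPM, of which Pygl was 1054. By member, the ratio was above 1 in 10 classes for Pygl, in 9 for Gbe1, in 7 for Gys1 and in 6 for Ugp2. The sum left after subtraction of neutrophil RNA, not rescaled, was 124 and 66.9 CPM in T or NK cells, a ratio of 0.540. The ratio was 0.686 in plasmacytoid dendritic cells, 0.927 in basophils or mast cells and 1.06 to 1.25 in the other 4 classes. Pygl, for the glycogen phosphorylase of liver and leukocytes, had 1054 CPM in control and 1133 in T1D mature neutrophils, and 725 and 811 in immature neutrophils. Its ratio was above 1 in all 10 classes and it passed in 4: the Cd34 cluster (117 and 214 CPM, 1.84-fold, 1.64 to 2.06), erythroid cells (65.7 and 137, 2.09-fold, 1.69 to 2.59), mature B cells (319 and 509, 1.60-fold, 1.45 to 1.77) and T or NK cells (198 and 319, 1.61-fold, 1.42 to 1.84). None of the 4 passed once neutrophil RNA was subtracted. In mature B cells 40.7 and 45.6 CPM were left, in T or NK cells 55.4 and 16.8, in erythroid cells 31.2 and 44.9, and in the Cd34 cluster 87.9 and 117. Gys1, for glycogen synthase, passed in mature B cells with 16.5 and 34.6 CPM, and 0 and 1.29 were left after the same subtraction. Gbe1, for the branching enzyme, passed in mature B cells (41.7 and 67.1 CPM, and 17.3 and 28.5 after subtraction, still past the rule). In plasmacytoid dendritic cells it passed on 23 T1D counts, and 9 of 16 alternatives ended that call. Ugp2, for the enzyme that makes UDP-glucose, passed in no class.

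The pentose phosphate pathway makes NADPH and ribose 5-phosphate. Its summed level was nearly the same in the libraries in mature neutrophils, 2262 and 2259 CPM, a ratio of 0.999 (0.978 to 1.02). The sums were 1154 and 1285 CPM in mature B cells and 815 and 1124 in T or NK cells, a ratio of 1.38 (1.29 to 1.47). Both turned around once neutrophil RNA was subtracted, without rescaling, to 405 and 168 CPM in mature B cells and 430 and 395 in T or NK cells. In T or NK cells Tkt, for transketolase, was 277 and 465 CPM, 1.68-fold higher (1.51 to 1.88), and Pgd, for the enzyme of the second NADPH-making step, was 110 and 169, 1.54-fold (1.29 to 1.83). Neither passed after that subtraction, without rescaling, with 132 and 173 CPM left for Tkt and 44.6 and 50.2 for Pgd. The share subtracted in T or NK cells was 17.4% in control and 32.4% in T1D. The missing rescaling by itself lowers these ratios and those of the sums. Whether the calls are lost and the sums turn around with rescaled levels was not tested. G6pdx, for the enzyme at the entry of the pathway, passed in no class and had 281 and 279 CPM in mature neutrophils. Taldo1, Pgls and Rpia passed in no class either, though Pgls passed as lower in mature B cells with neutrophil RNA subtracted, with 50.5 and 26.6 CPM left.

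**Figure D4:**
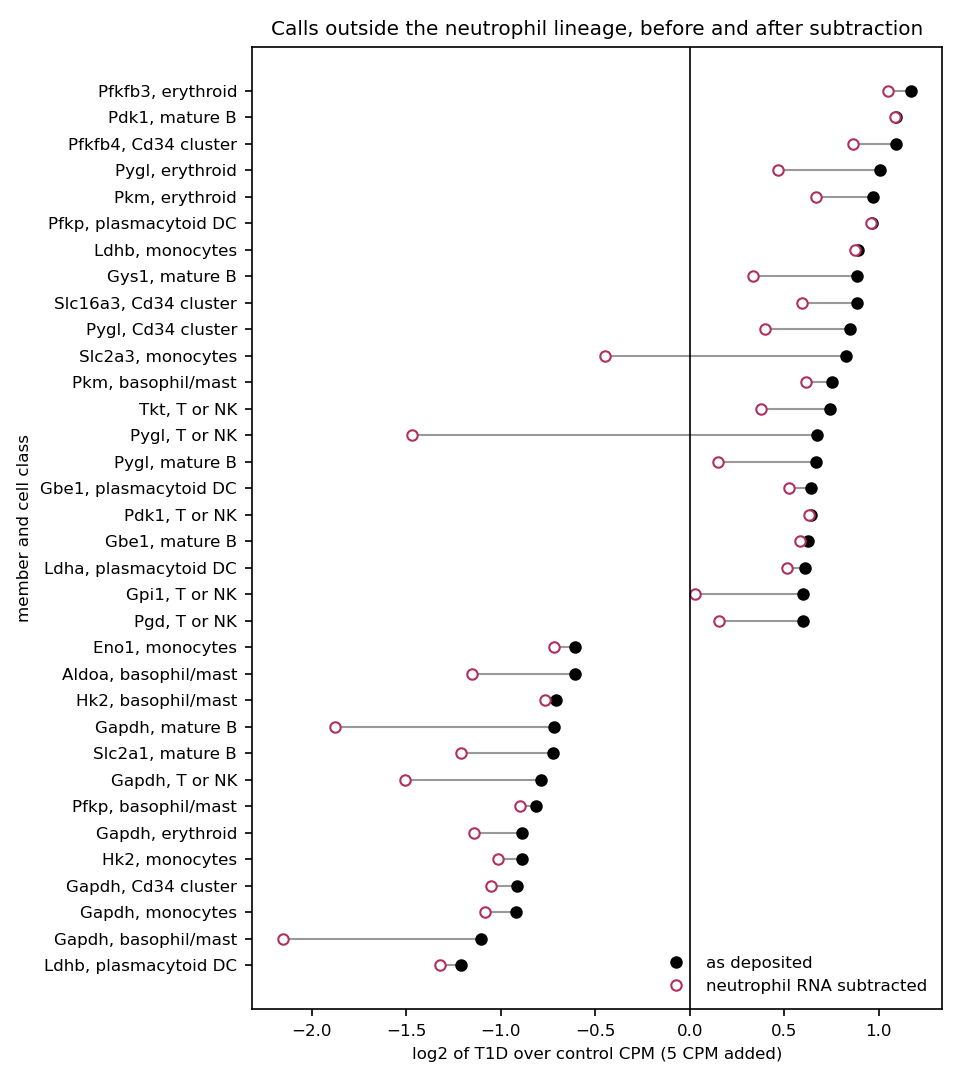
Log2 ratio of T1D over control level (5 CPM added) for each member call outside the neutrophil lineage, as deposited (black) and with neutrophil RNA subtracted (open circles). Of 21 higher calls 8 still passed the rule after subtraction, and of 13 lower calls 12.

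In the classes outside the neutrophil lineage, 8 of 21 calls on the higher side still passed after that subtraction and 13 did not. On the lower side 12 of 13 still passed, Slc2a1 in mature B cells being the exception, and 4 lower calls were added, those of Eno1, Mpc2 and Pgls given above. Since the subtraction takes more from T1D by construction, these counts do not compare higher with lower calls. A higher call can also be lost, and a lower call added, because the levels left were not rescaled. The 8 were Pfkp in plasmacytoid dendritic cells, Pkm in erythroid cells and in basophils or mast cells, Ldhb in monocytes, Slc16a3 in the Cd34 cluster, Gbe1 in mature B cells, and Pdk1 in mature B cells and in T or NK cells. The subtraction assumes that the 3 granule genes are made by neutrophils alone and that the RNA has the mean makeup of the neutrophils of its library.

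**Figure D5:**
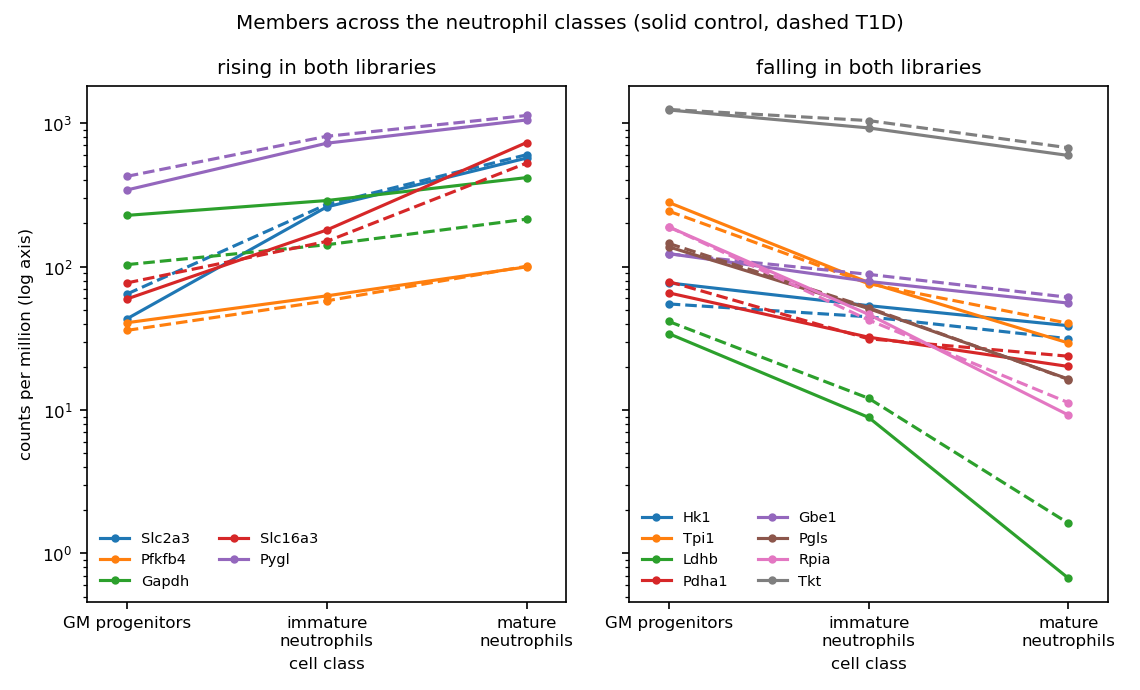
Levels in CPM (log axis) of the 5 members whose level went up and the 8 whose level went down, with intervals that did not overlap, at each step from granulocyte-monocyte progenitors through immature to mature neutrophils in both libraries, control as solid and T1D as dashed lines. Gapdh goes up in both libraries, from 228 to 418 CPM in control and from 103 to 214 in T1D.

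From granulocyte-monocyte progenitors to immature and on to mature neutrophils, the level of 5 members went up and that of 8 went down at each step in both libraries, with intervals that did not overlap. These are 5 and 8 of the 37 members past 10 CPM in at least 1 of these classes, against 7.94% and 32.7% of all 8086 such features. The 5 were Slc2a3, Pfkfb4, Gapdh, Slc16a3 and Pygl. In the control library Slc16a3 went from 59.4 to 180 and 733 CPM, Slc2a3 from 43.2 to 261 and 571, and Pygl from 342 to 725 and 1054. In T1D Slc16a3 went from 76.9 to 150 and 527 CPM, Slc2a3 from 64.3 to 271 and 603, and Pygl from 426 to 811 and 1133. These 3 serve lactate export, uptake and glycogen breakdown. Gapdh went from 228 to 289 and 418 CPM in control and from 103 to 142 and 214 in T1D.

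The 8 with lower levels at each step were Hk1, Tpi1, Ldhb, Pdha1, Gbe1, Pgls, Rpia and Tkt. Tpi1, for triose phosphate isomerase, went from 280 to 77.5 and 29.3 CPM in control and from 244 to 76.1 and 40.2 in T1D. Rpia, which makes ribose 5-phosphate, went from 189 to 46.4 and 9.22 in control and from 189 to 42.4 and 11.2 in T1D. Tkt went from 1237 to 928 and 596 CPM in control and from 1248 to 1044 and 674 in T1D. In the other 25 members at least 1 step had overlapping intervals or went the other way. By level alone, without regard to intervals, 7 of the 37 went up at each step and 16 went down, against 14.4% and 56.6% of all features.

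Of the other genes of the pathway, few passed the rule in the 6 larger classes. The shares of all features that passed in each class are those given above with the members. Of 19 listed further glycolytic and lactate genes 2 to 4 reached 10 CPM, with 0 higher in any of these classes and 1 lower in immature neutrophils. Of 9 further pyruvate dehydrogenase genes 0 were higher and 1 was lower, in mature B cells. Further glucose transporters and hexokinases had 1 higher in the Cd34 cluster and 1 in mature B cells, and 0 lower. Further pentose phosphate genes had 1 higher and 1 lower, both in mature B cells. Of 23 tricarboxylic acid cycle genes 4 were lower in mature B cells and 2 in T or NK cells, and 1 was higher in each of mature neutrophils and mature B cells. The hexosamine and polyol branches had at most 1 in either direction in a class.

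Further glycogen genes were higher in 1 to 3 cases in each of these classes, and lower in 1 in monocytes and in 2 in mature B cells. Ppp1r3b, for a subunit that targets protein phosphatase to glycogen, was 19.3 and 54.2 CPM in monocytes, and 218 and 258 in mature neutrophils, its highest class. After subtraction the monocyte levels were 10.2 and 26.9 CPM, still past the 1.5-fold rule. The 7 NADPH oxidase subunit genes, whose enzyme makes superoxide, passed in none of immature neutrophils, mature neutrophils, monocytes and mature B cells, and 1 was higher in each of the Cd34 cluster and T or NK cells. Gsr, for glutathione reductase, which uses NADPH, was 609 CPM (594 to 625) in control and 1241 in T1D monocytes. Its level was 246 and 571 CPM among the T or NK cells, and 1063 and 1375 in mature neutrophils. Gsr passed the 1.5-fold rule in every compared class outside the neutrophil lineage, as in plasmacytoid dendritic cells with 197 and 519 CPM. Subtraction of neutrophil RNA left 548 and 1051 CPM in monocytes and 109 and 198 in T or NK cells, both past the 1.5-fold rule. It also passed after subtraction, without rescaling, in plasmacytoid dendritic cells, the Cd34 cluster and basophils or mast cells, but not in erythroid cells. Gsr was 326 and 622 CPM in mature B cells, and 59.2 and 49.8 were left there, which did not pass. Of 13 further users of NADPH at most 2 were higher and 1 lower in a class. Of the regulators of the hypoxia and carbohydrate responses 11 reached 10 CPM in mature neutrophils, with 3 higher (9.35% of all features) and 0 lower (6.48%). In mature B cells 14 reached it, with 0 higher (5.91%) and 2 lower (13%). Of the 14 G2 and M phase genes 6 reached 10 CPM in mature neutrophils, and 4 of these were higher (9.35% of all features). All 14 reached it in the Cd34 cluster, where 3 were lower (5.52%). All 14 also reached it in the smaller classes. There 8 were lower in basophils or mast cells (8.13%), 4 were higher in plasmacytoid dendritic cells (8.78%) and 1 was lower in erythroid cells (8.46%). Granulocyte-monocyte progenitors had 0 in either direction. Of the 14 S phase genes at most 1 passed in either direction in any of the 6 larger classes. In plasmacytoid dendritic cells 4 of 13 past 10 CPM were higher (8.78%), and in erythroid cells 3 of 14 were lower (8.46%). Basophils or mast cells had 2 of 13 higher (5.53%) and 1 lower (8.13%), and granulocyte-monocyte progenitors had 0 in either direction. The part of these cell cycle genes in the results above was not tested. The counts of these lists are without subtraction. After subtraction of neutrophil RNA the further glycogen genes had 0 higher in T or NK cells, the Cd34 cluster and mature B cells, and the NADPH oxidase genes had 0 higher and 1 lower in the Cd34 cluster and in T or NK cells and 2 lower in mature B cells.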

How the data were processed

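Single-cell RNA was captured with the Singleron GEXSCOPE kit after digestion of bone fragments and lysis of red blood cells, per the labels' protocols. The authors deposited raw counts, as whole numbers, for each gene in each barcode. Demultiplexing used bcl2fastq 2.19, gene assignment featureCounts and the build mm9, per the submitters' processing notes. For aligner, annotation, strand setting and any collapse of molecular identifiers, the labels used here name nothing.

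Barcodes under 200 genes or above 20% mitochondrial counts were left out. Scrublet in scanpy 1.11.5 marked 1 control and 2 T1D cells as doublets, too few to have worked, and none was removed. Counts were scaled to 10000 per cell and logged. From 2000 variable genes per library, without the members and pathway lists, 30 principal components, 15 neighbours and the Leiden method (igraph 0.11.9, resolution 1, best modularity of 10 starts) gave 27 clusters. A cluster was named with at least 3 markers at 2-fold and 50 CPM, and with no other list above 66.7% of the leading count, a limit set after seeing the data. A name also needed at least 1 of its markers among the 10 leading genes, no other list with more there, and a median total that was not very low. A cluster with erythroid markers stayed unnamed where ribosomal RNA was among its leading genes. This kept cluster 17 out of the erythroid cells. Members and lists were chosen with earlier results of these data known.

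Counts were summed per class and library and given as CPM. Intervals are exact Poisson intervals for levels and exact conditional binomial intervals for ratios. No test was made, with 1 library per group. The rule for members described in full was passing the 1.5-fold rule in a larger class or in at least 2 classes, or the highest level of a pathway step, and other members are named with fewer values. Non-members were named by a 2-fold rule with at least 50 CPM. The fold rule was tried on simulated counts of mature neutrophils with counting error only, where the changed genes had at least 50 CPM in control. That cannot speak for smaller classes, lower levels or the spread between animals. There were 17 alternatives chosen at the start and 1 added later, among them TMM (edgeR 4.0.16) and DESeq2 1.42.0 size factors. The marker lists served to name clusters and to measure neutrophil RNA.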

Additional observations from a re-analysis of the deposited data

Results flagged for a closer look

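Pfkp, for the platelet-type phosphofructokinase, had log2 ratios of T1D over control of 0.96 in plasmacytoid dendritic cells and -0.81 in basophils or mast cells, past the 1.5-fold rule in opposite directions. Ldhb had 0.89 in monocytes and -1.21 in plasmacytoid dendritic cells, likewise. In both cases the difference between the classes was not tested, and the plasmacytoid dendritic cells of the T1D library were 148 cells, with 73 counts of Pfkp and 8 of Ldhb.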

How the results depend on the processing

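No paired analysis was possible because each group was 1 library. Counting depth limits what could pass: at 10 CPM a class of few cells holds few counts. Of 212 values of the members' counts under 18 alternatives, 152 stayed within 1.5 times and 60 did not. Of 598 values of single members, 10 turned around. The cause of each move below was not tested. With 2-fold in place of 1.5-fold, and 10 CPM kept, 1 member was higher in the Cd34 cluster and 1 in mature B cells, 0 in mature neutrophils, monocytes and T or NK cells, and 0 were lower in any larger class.

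Counts of members higher moved as follows. In the Cd34 cluster 3 became 5 at Leiden resolution 2 and at the start of second highest modularity, 6 with cells assigned one by one, 0 with RNA subtracted at the hemoglobin level and 1 with neutrophil RNA subtracted. In mature neutrophils 1 became 3 without ribosomal RNA in totals and with 1 CPM added, and 2 with cells weighted the same, at 500 genes per cell and at the lowest control total. In monocytes 2 became 4 without ribosomal RNA, with TMM and with 1 CPM added, and 1 at 50 CPM and under each subtraction, hemoglobin or neutrophil. In mature B cells 4 became 7 at the lowest control total, 2 at 50 CPM, 11 at the hemoglobin level and 2 with neutrophil RNA subtracted. In T or NK cells 5 became 3 at the plasma cell level and 1 with neutrophil RNA subtracted.

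Counts of members lower moved likewise. In the Cd34 cluster 1 became 3 with cells assigned one by one, 4 at the hemoglobin level and 2 with neutrophil RNA subtracted. In immature neutrophils 1 became 3 with TMM, 11 at the hemoglobin level and 2 with DESeq2, cells weighted the same, resolution 2, pathway genes in the clustering or 1 CPM added. In mature neutrophils 1 became 5 with DESeq2, 10 at the hemoglobin level and 2 with TMM, the lowest control total or cells assigned one by one. In monocytes 3 became 7 at the hemoglobin level. In mature B cells 2 became 4 with cells assigned one by one, 0 at the hemoglobin level and 1 without ribosomal RNA, with TMM, with DESeq2, at 500 genes, at the lowest control total, without the 5% largest cells or at 50 CPM. In T or NK cells 1 became 2 at 10% mitochondrial counts and 0 with cells assigned one by one.

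Median log2 ratios at the hemoglobin level were -0.25 in the Cd34 cluster, -0.60 in immature and -0.60 in mature neutrophils, -0.45 in monocytes, 1.92 in mature B cells and 0.16 in T or NK cells. That setting subtracted the levels of the other cells at large and unequal shares. In mature neutrophils the share was 54.5% in control and 81.2% in T1D, and in mature B cells 62.8% and 18.9%. With neutrophil RNA subtracted they were 0.0113 in the Cd34 cluster, -0.12 in monocytes, -0.56 in mature B cells and -0.39 in T or NK cells. In mature neutrophils the median was 0.0902 without ribosomal RNA and -0.15 with DESeq2, where that of all features shifted by 0.11 and -0.12. It was 0.33 in the Cd34 cluster without the 5% largest cells, 0.072 in monocytes with cells assigned one by one and 0.33 in mature B cells at the lowest control total.

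Log2 ratios that turned around at the hemoglobin level were those of Slc2a3 in monocytes (-2.20), Gapdh in mature B cells (3.83), and Slc16a3 (-0.24) and Pygl (-1.21) in the Cd34 cluster. At the plasma cell level they were Pfkfb3 (-0.49), Pkm (-3.47) and Pygl (-3.71) in erythroid cells and Pkm (-0.027) in basophils or mast cells. With neutrophil RNA subtracted they were Slc2a3 in monocytes (-0.45) and Pygl in T or NK cells (-1.47).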

Other observations

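Outside the pathway proper, Hilpda is a target of hypoxia-inducible factors that coats lipid droplets and blocks their lipase. By the 1.5-fold rule it was higher in T1D in every compared class but erythroid cells. It had 11.3 CPM (9.64 to 13.2) in control and 56.4 in T1D immature neutrophils, and 14.8 (11.8 to 18.2) and 95.7 in mature neutrophils. In mature B cells it had 8.41 and 65.7 CPM, of which 4.25 and 30.2 were left with neutrophil RNA subtracted, still past the 1.5-fold rule. Basophils or mast cells had 17.0 and 79.2 CPM, of which 15.3 and 62.0 were left, also past it. The calls in monocytes, plasmacytoid dendritic cells, the Cd34 cluster and T or NK cells were lost with that subtraction, made without rescaling. The listed targets of these factors, with Hilpda counted among them, went both ways. In immature neutrophils 8 reached 10 CPM, with 2 higher (3.94% of all features) and 0 lower (2.45%). In mature neutrophils 9 reached it, with 2 higher (9.35%) and 1 lower (6.48%). In monocytes 11 reached it, with 1 higher (4.75%) and 2 lower (6.38%). Hilpda was 1 of those higher in each of these classes. Txnip, which rises with glucose through the carbohydrate response factors in many cells and holds back glucose uptake, had 171 CPM (153 to 192) in control and 403 in T1D T or NK cells, and 162 and 372 with neutrophil RNA subtracted. In mature neutrophils it had 92.2 and 145 CPM, in immature neutrophils 37.7 and 64.0, and in basophils or mast cells 151 and 264. Txnip passed the 1.5-fold rule as higher in these classes and in T or NK cells. It passed in no other compared class, as in monocytes with 60.3 and 58.5 CPM.

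Immediate early genes, which respond to handling of cells, differed by class. Of 14 listed, 6 were lower and 1 higher in T or NK cells (9.05% and 7.15% of all features), and 5 lower and 0 higher in mature B cells (13% and 5.91%). In each of monocytes (6.38% and 4.75%), mature neutrophils (6.48% and 9.35%) and the Cd34 cluster (5.52% and 5.33%) 3 were lower and 1 higher. In plasmacytoid dendritic cells (8.21% and 8.78%) and erythroid cells (8.46% and 7.8%) 2 were lower and 1 higher. The counts were 1 and 1 in immature neutrophils (2.45% and 3.94%) and 3 and 3 in basophils or mast cells (8.13% and 5.53%). Granulocyte-monocyte progenitors had 0 lower and 2 higher (4.62% and 4.61%). Atf3 had 469 and 153 CPM in monocytes, Fosb 381 and 147 in T or NK cells and Egr1 476 and 228 in mature B cells. Ier3 went the other way in monocytes, with 76.7 and 246 CPM. Their part in the differences of the pathway genes was not tested.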
